A study of Mus musculus with 38 samples.

Results

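Chemokines and chemokine receptors were followed in mouse brown adipose tissue, the heat-producing fat depot. The genes were chosen by name: every array gene whose symbol begins with Ccl, Cxcl, Ccr or Cxcr and a digit, with the fractalkine pair Cx3cl1 and Cx3cr1 and the lymphotactin pair Xcl1 and Xcr1. The rule found 54 of the 29411 gene names on the array, 36 of them ligands and 18 receptors. Of these, 45 (31 ligands and 14 receptors) lay well above background, by the scanner's own call, on 6 or more of the 38 arrays and were tested among 21862 genes. The other 9 were seen well above background on few arrays: Cxcl3, Cxcl5 and Cxcl17 on 5 each, Ccl1 on 4, Ccr4 on 3, Ccl22 on 2, Ccr1 and Ccr8 on 1 each, and Ccr1l1 on 0.

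Weaned C57BL/6J mice aged 3 to 4 weeks were given a low fat diet with 10% of calories from fat (group LFC) or a high fat, high sucrose diet with 60% of calories from fat (HFC). The groups HF5, HF20 and HF75 ate the second diet together with KAL-1, an ethno-botanical formulation, at 5, 20 or 75 µg. LFC and HFC had 1 array each on days 6, 10 and 14, then at week 0 and every 3 weeks to week 18, and each dose had 1 array at each time from week 3, so that the time points of a group served as its replicates. Weeks were counted after the first 14 days of diet, and the labels do not say whether an array held 1 animal or a pool. The p-values thus measure the spread between these arrays. Where time point is in the model as a block, that spread leaves out change over time shared by the groups. It still includes change over time in the difference between groups. The trend over days has no such block.

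Chemokines are small secreted proteins that draw leukocytes along a gradient, and their receptors couple to G proteins in the membrane of the responding cell. Their names follow the spacing of conserved cysteines: CC ligands bind CCR receptors, CXC ligands bind CXCR receptors, and the CX3C and XC families are small. In fat depots they are known for recruiting monocytes, the precursors of tissue macrophages, while CXCL12 and the CCR7 and CXCR5 ligands govern the steady traffic of progenitors and lymphocytes. In whole tissue, fewer cells of a type and less RNA per cell cannot be told apart.

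The tissue label was checked first. Of 12 brown adipocyte markers, 10, Ucp1 and Cidea among them, were well above background on all 38 arrays, Dio2 on 37 and Elovl3 on 34. Signals are given on the log2 scale relative to the 75th percentile of the array, which is 0, and 1 probe was taken per gene (14 of the genes have more), so that a level can be set against the same gene in another array but not against another gene. That 75th percentile ran from 35.1 to 1209 intensity units, and 11 arrays lay above 600 units: LFC weeks 0, 3, 9 and 12, HFC day 10 and week 3, HF20 weeks 3, 6, 12 and 15, and HF75 week 3. These are called bright arrays and the other 27 dim arrays. The share of probes well above background ran from 36.6% to 78.8%. The week 3 array of HF75 stood apart: the summed brown adipocyte markers reached 6.86 there, against 8.56 to 11.49 in the other 37 arrays. Summed skeletal muscle markers (6 genes) were uneven, from -1.79 in LFC week 0 to 9.35 in HF75 week 12. They were also high in HF20 weeks 3 and 15 (7.93 and 8.03), HFC day 10 (7.84) and LFC week 12 (7.18). The part of muscle in the results was not tested.

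The genes lie in a few clusters. Chromosome 11 held 12 of the ligands, most of them CC ligands, chromosome 5 held 11 of the ligands and chromosome 9 held 12 of the receptors. The RefSeq annotation (GRCm38.p6) gave 42 promoter windows, the 250 bases before each start, for 38 of the 54 genes. The NF-kB motif GGGANNNNCC, searched on both strands, lay in 17 of the 42 windows (40.5%) and in 17.6% of all 32851 windows. The TATA motif TATAAA lay in 13 windows (31.0%, against 12.4% of all), the AP-1 motif TGANTCA in 5 (11.9%, against 6.75%) and the interferon response motif GAAANNGAAA in 3 (7.14%, against 2.98%). The windows of the 5 genes that passed a test below are printed 5′ to 3′ in the direction of transcription, with motif matches in capitals. They are Ccl3 (chr11:83649379-83649628, minus strand), Cxcl12 (chr6:117168285-117168534, plus), Cxcl13 (chr5:95956689-95956938, plus), Cxcl2 (chr5:90903649-90903898, plus) and Cxcr4 (chr1:128592300-128592549, minus).
Ccl3: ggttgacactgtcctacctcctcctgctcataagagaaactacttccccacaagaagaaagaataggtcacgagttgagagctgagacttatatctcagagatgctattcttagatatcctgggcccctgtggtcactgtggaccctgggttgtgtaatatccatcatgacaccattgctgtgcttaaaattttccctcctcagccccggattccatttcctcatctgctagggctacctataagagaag
Cxcl12: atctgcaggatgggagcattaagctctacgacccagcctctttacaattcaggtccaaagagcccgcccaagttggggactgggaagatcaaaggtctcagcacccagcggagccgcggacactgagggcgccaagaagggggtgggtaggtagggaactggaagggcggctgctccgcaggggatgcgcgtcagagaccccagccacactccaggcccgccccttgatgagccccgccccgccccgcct
Cxcl13: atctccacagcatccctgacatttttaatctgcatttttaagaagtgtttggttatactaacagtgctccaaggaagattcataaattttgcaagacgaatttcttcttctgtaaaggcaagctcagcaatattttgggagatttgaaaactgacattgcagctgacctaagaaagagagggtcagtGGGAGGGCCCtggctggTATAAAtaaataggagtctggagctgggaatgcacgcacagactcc
Cxcl2: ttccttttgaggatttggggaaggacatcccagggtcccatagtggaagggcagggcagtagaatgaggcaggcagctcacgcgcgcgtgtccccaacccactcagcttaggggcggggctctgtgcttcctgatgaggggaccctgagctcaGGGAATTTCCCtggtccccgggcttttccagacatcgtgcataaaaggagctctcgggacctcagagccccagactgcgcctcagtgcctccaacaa
Cxcr4: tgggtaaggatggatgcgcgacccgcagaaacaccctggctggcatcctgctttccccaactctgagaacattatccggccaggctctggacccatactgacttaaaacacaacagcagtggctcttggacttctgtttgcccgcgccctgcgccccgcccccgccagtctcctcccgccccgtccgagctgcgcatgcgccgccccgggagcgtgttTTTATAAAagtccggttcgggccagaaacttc
The capitals in Cxcl2 are a pair of overlapping NF-kB matches that begin 97 and 96 bases before the start, and those in Cxcl13 are an NF-kB match at 63 and a TATA match at 46 bases. Those in Cxcr4 are overlapping TATA matches at 32 and 30 bases, and the windows of Ccl3 and Cxcl12 held 0 matches. A match describes letters in the window and no site was measured.

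A set of 16 genes was well above background on all 38 arrays, in every group and at every time. Among the homeostatic ligands, Cxcl12 ranged from 2.46 to 7.45 (median 5.99), Cxcl14 from -2.51 to 2.54 (median 0.80) and Cx3cl1 from -2.47 to 2.52 (median 1.43). Ccl19, a CCR7 ligand of lymphoid stroma, ranged from -2.64 to 2.57 (median -0.31), the thymic and gut chemokine Ccl25 from -2.19 to 1.16 (median -0.96) and the skin chemokine Ccl27a from -2.33 to 1.36 (median -1.23).

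Of the monocyte attractants, Ccl2 ranged from -1.94 to 5.45 (median 1.07) and Ccl8 from -2.79 to 2.89 (median 0.15). Of the group of CC ligands made by myeloid cells and lymphocytes (Ccl3, Ccl4, Ccl5, Ccl6 and Ccl9), Ccl4 ranged from -4.86 to 5.48 (median 1.49), Ccl6 from -0.03 to 3.54 (median 1.45) and Ccl9 from -1.33 to 2.23 (median -0.39). The eotaxin Ccl11 ranged from -1.82 to 2.86 (median -0.10). Ccl6 and Ccl9, which myeloid cells make, kept a narrower range than Ccl2 and Ccl4.

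The interferon-inducible Cxcl9, which attracts effector T cells through CXCR3, ranged from 0.11 to 4.10 (median 2.24), and Cxcl16, the CXCR6 ligand, from -2.96 to 1.74 (median -0.13). Only 2 receptors were seen on every array. They were Cxcr4, from -5.35 to 0.76 (median -1.20), and Cxcr7, the scavenging receptor of CXCL12, from 0.28 to 3.94 (median 2.59).

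**Figure D1:**
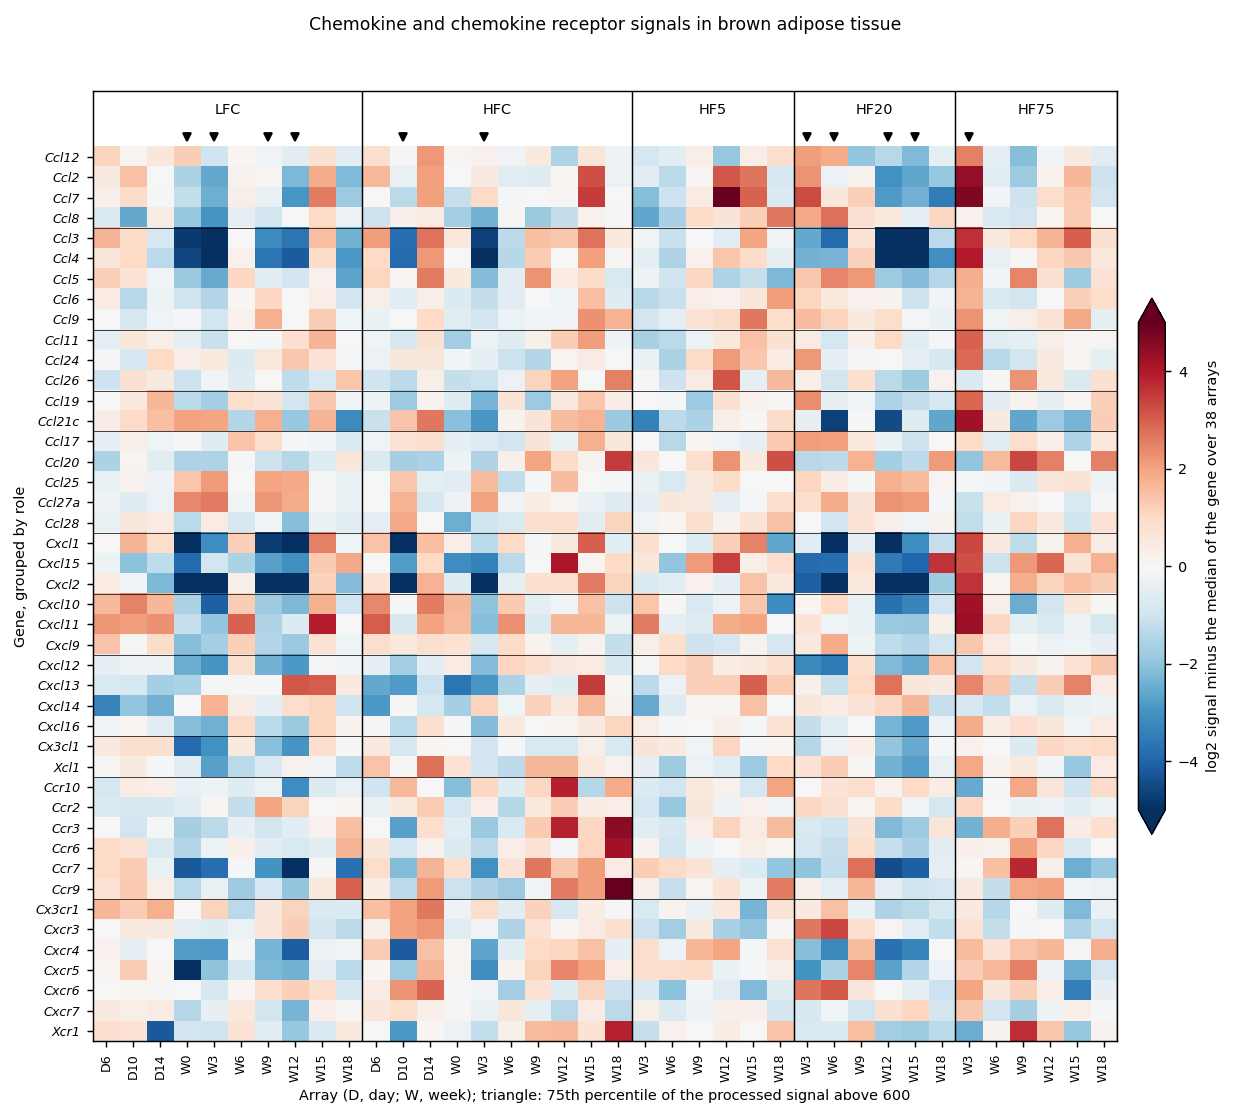
Signals of 44 of the 45 tested genes (rows) on the 38 arrays (columns, by group and then time), as the log2 signal minus the gene's own median over the 38 arrays, with red for higher and blue for lower; triangles mark the 11 bright arrays. Cxcl2, Ccl3 and Cxcr4 are low in 10 of the 11 bright arrays, and the week 3 array of HF75 is the exception.

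The chemokine genes varied more than most. The median SD over the 38 arrays was 1.32 for the 45 tested genes and 0.92 for all genes tested, and 77.3% of all genes lay below the first value. The neutrophil attractant Cxcl2 varied most, with an SD of 3.38, followed by Ccl3 (2.65), Ccl4 (2.57) and Cxcl1 (2.56).

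Part of this spread went with array brightness. The mean over the 11 bright arrays minus the mean over the 27 dim arrays was -5.97 for Cxcl2, -4.27 for Ccl3, -3.84 for Ccl4, -3.31 for Cxcr4 and -2.86 for Cxcl12. It was 1.41 for Ccl25 and 1.79 for Ccl27a, with a median of -0.69 over the 45 genes and -0.32 over all genes. For Cxcl12 all 27 dim arrays lay above every bright array, and for Cxcl2, Ccl3 and Cxcr4 they lay above every bright array but the week 3 array of HF75. Summed endothelial markers (6 genes) ranged from 4.11 to 7.35 in the bright arrays, with a median of 4.51, and from 6.36 to 7.93 in the dim arrays, with a median of 7.44. Summed neutrophil markers (6 of 7 listed were on the array) ranged from 1.30 to 5.51 in the bright and from 3.29 to 10.30 in the dim arrays. The part of brightness and of these cells in the results was not tested. Other probes of a gene did not always move alike: with brightness the other Cxcl12 probe differed by -0.75, that of Cxcl16 by -0.11 (the probe used, -1.75) and that of Cxcr4 by -3.47.

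The first question was what the high fat diet did. No tested chemokine gene passed an adjusted p of 0.05 in HFC against LFC over the 10 time points (limma, 0 of 45; 0% of all genes), where 0.643 was the lowest adjusted p. Without adjustment, 6 of 45 genes (13.3%) were under 0.05, against 6.98% of all genes. The point estimate was higher in HFC for 38 of the 45 genes, with a median log2 difference of 0.48. Over all genes the median was 0.055 and 55.3% were higher. Every tested receptor had a higher estimate (7 of 7 CC receptors, with a median of 0.82, and 7 of 7 CXC, CX3C and XC receptors, with a median of 0.52), as had the 5 ligands Ccl3, Ccl4, Ccl5, Ccl6 and Ccl9 (median 0.99), the 3 neutrophil attractants (median 1.37), the 4 monocyte attractants (median 0.49) and the 3 interferon-inducible ligands (median 0.48). The eotaxins, which attract eosinophils through CCR3, and the CCR7 ligands were near or below 0, with medians of -0.07 and -0.41.

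**Figure D2:**
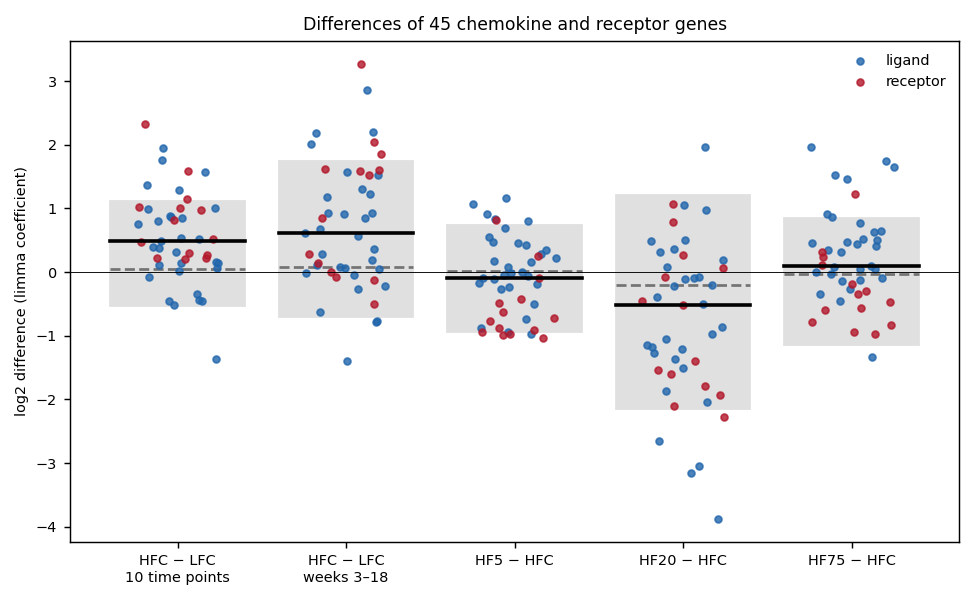
The limma log2 difference of each of the 45 tested genes (points) in 5 comparisons, with a black line at their median, a dashed line at the median of all genes and a grey box from the 5th to the 95th percentile of all genes. The median of the 45 genes lies at 0.48 for HFC minus LFC and at -0.51 for HF20 minus HFC.

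Among the ligands, Xcl1, which draws cross-presenting dendritic cells through XCR1, had the smallest p. Its level ranged from -7.65 to -4.50 in LFC, with a median of -5.31, and from -6.27 to -2.19 in HFC, with a median of -4.31. It was higher in HFC at 9 of the 10 time points and the groups overlapped. The log2 difference was 1.29 (SE 0.30, unadjusted p = 0.00109, adjusted p = 0.643), at signals that were well above background on 5 LFC and 7 HFC arrays of 10.

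Ccl5, a T cell and monocyte attractant made by activated lymphocytes, ranged from -2.95 to 0.89 in LFC (median -0.67) and from -2.48 to 2.29 in HFC (median 0.16). The HFC array was the higher at 7 of 10 time points and the groups overlapped, with a log2 difference of 0.99 (SE 0.43, adjusted p = 0.643). Ccl2, the main monocyte attractant and ligand of CCR2, ranged from -1.49 to 2.94 in LFC (median 1.14) and from 0.48 to 4.28 in HFC (median 1.11). Its medians were alike and its ranges overlapped, although the mean difference was 1.01 (SE 0.46, adjusted p = 0.643), with HFC the higher at 7 of 10 time points.

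Cxcl13, the B cell attractant that binds CXCR5, had the opposite sign. It ranged from -4.43 to 0.31 in LFC (median -2.88), well above background on all 10 arrays, and from -6.44 to 0.72 in HFC (median -4.10), well above background on 5. HFC was the lower array at 8 of 10 time points, and the ranges overlapped. The week 15 array of HFC was the highest of all 20. The log2 difference was -1.37 (SE 0.41, unadjusted p = 0.00617, adjusted p = 0.643).

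Of the receptors, Ccr7, which guides dendritic cells and naive T cells to lymph nodes, ranged from -7.01 to -0.75 in LFC (median -3.67) and from -5.02 to 0.63 in HFC (median -1.15). It was higher in HFC at 8 of 10 time points, in overlapping groups, by 2.32 (SE 0.85, adjusted p = 0.643). Cxcr5, the receptor of follicular B cells, ranged from -8.66 to -2.38 in LFC (median -4.75) and from -6.75 to -1.23 in HFC (median -3.40), with a difference of 1.59 (SE 0.72, adjusted p = 0.643). It too was higher at 8 of 10 time points, and it was well above background on 6 LFC and 7 HFC arrays.

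**Figure D3:**
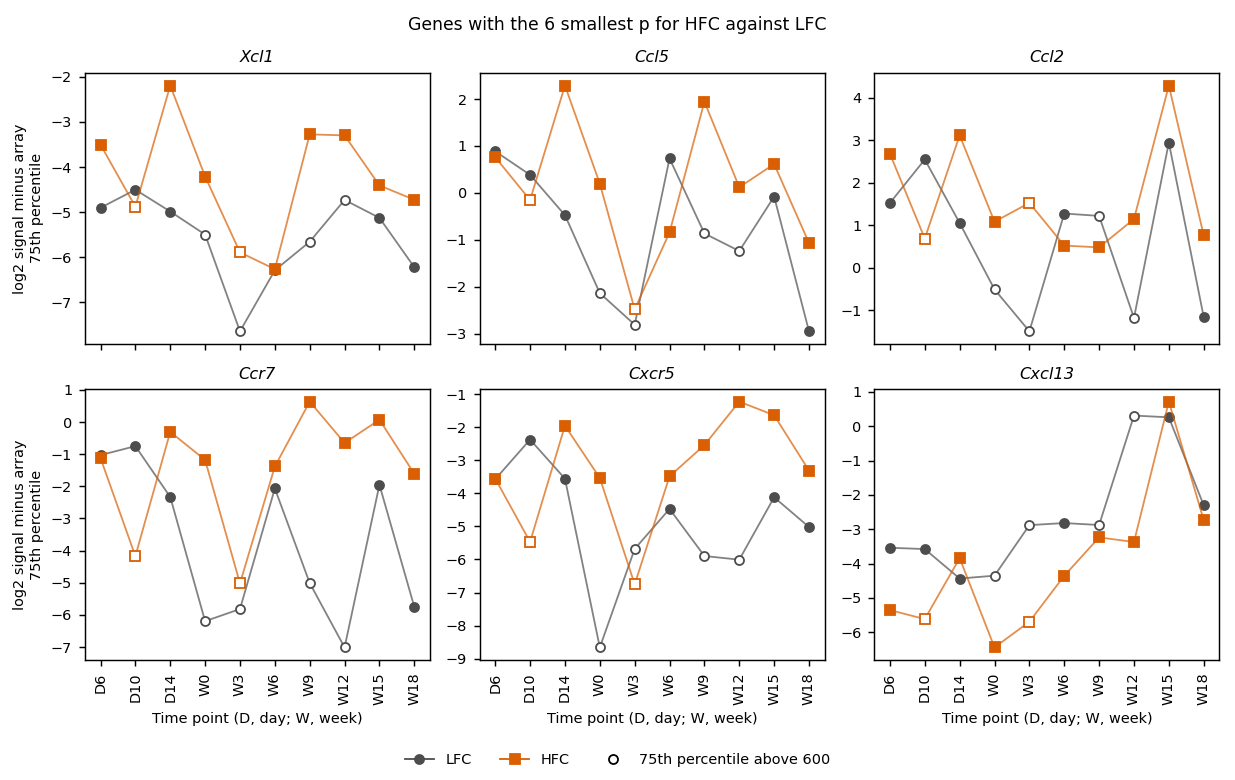
Log2 signal relative to the array's 75th percentile of Xcl1, Ccl5, Ccl2, Ccr7, Cxcr5 and Cxcl13 at the 10 time points in LFC and HFC, 1 array per point, with open symbols for bright arrays. Xcl1 lies higher in HFC at 9 time points and Cxcl13 lower at 8, and the ranges of the 2 diets overlap in each panel.

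Summed lymphocyte and neutrophil markers had higher medians in HFC, in overlapping ranges, and 0 of these markers passed an adjusted p of 0.05 (limma). At an unadjusted p under 0.05, 5 of 8 T cell, 2 of 5 tested B cell, 2 of 4 NK cell and 0 of 6 neutrophil markers did, against 6.98% of all genes. The summed T cell markers (8 genes) had a median of -0.26 in LFC and 0.68 in HFC, the summed B cell markers (7 genes) -0.60 and 0.28, and the summed NK cell markers (4 genes) -2.49 and -0.61. The T cell sums ranged from -1.83 to 0.29 in LFC and from -1.504 to 1.73 in HFC, the B cell sums from -2.73 to 0.21 and from -1.54 to 2.55, and the NK cell sums from -3.46 to 0.42 and from -2.73 to 1.12. Of their defining genes, Cd3e was well above background on 30 of the 38 arrays, Ms4a1 on 30 and Ncr1 on 12. The neutrophil sums (6 genes) had medians of 4.27 in LFC, with a range of 1.30 to 7.59, and 6.03 in HFC, with a range of 1.45 to 7.74. The macrophage sums (11 genes) had medians of 4.07 and 3.99. The part of these cells in the chemokine differences was not tested. At the 6 time points where both diets had arrays of the same brightness the mean differences were 1.36 for Xcl1, -0.92 for Cxcl13, 1.60 for Ccr7 and 1.46 for Ccl2, and at the other 4 they were 1.18, -2.04, 3.40 and 0.33.

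Within weeks 3 to 18, at which the doses were also sampled, 0 of the 45 genes passed an adjusted p of 0.05 (limma, 0.00915% of all genes) and 6 (13.3%) passed an unadjusted p of 0.05, against 14.5% of all genes. Thus the share was near the background. The median difference was 0.61 over the 45 genes, with 34 higher, and 0.075 over all genes. Ccr7 had the smallest p, with levels from -7.01 to -1.95 in LFC (median -5.38) and from -5.02 to 0.63 in HFC (median -1.02). Its ranges overlapped and its difference was 3.28 (SE 1.03, unadjusted p = 0.00403, adjusted p = 0.334). The next were Ccl20, the ligand of CCR6, with 1.57 (SE 0.57), the skin-homing receptor Ccr10 with 1.85 (SE 0.69), Cxcr5 with 2.04 (SE 0.84) and Xcr1 with 1.61 (SE 0.69). Ccl20 was well above background on 1 of 6 arrays in each diet and Ccr10 on 2 of 6 in each, and the difference of Ccr10 was 0.82 without week 12.

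The next question was what the doses of KAL-1 did on the high fat diet. Each dose was compared with the same 6 HFC arrays, so that the 3 comparisons share their controls. With 5 µg, 0 of 45 genes passed an adjusted p of 0.05 (limma, 0% of all genes) and 1 (2.22%) an unadjusted p of 0.05, against 5.45% of all genes. The median difference was -0.085 over the 45 genes and 0.013 over all genes. The 1 gene was Cxcl14, a constitutively made chemokine of epithelia and fat. It ranged from -1.73 to 2.26 in HF5 (median 0.83) and from 0.59 to 2.42 in HFC (median 1.60). Cxcl14 was lower with 5 µg at 6 of 6 weeks, in overlapping ranges, by a mean of 0.98 on the log2 scale (coefficient -0.98, SE 0.47, adjusted p = 0.822). Without week 3, where HFC had a bright and HF5 a dim array, the difference was -0.44. The others with the smallest p were Cxcl13 with 1.17, Ccl24, an eotaxin, with 0.91, Cxcr3, the receptor of effector T cells, with -1.04 and Ccr6, the receptor of CCL20, with -0.91. Ccr6 was well above background on 2 of 6 HF5 arrays and differed by -0.28 without week 18. Ccl24 differed by 0.60 without week 9, and by 0.07 on its other probe.

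With 75 µg, 0 of 45 genes passed an adjusted p of 0.05 (limma, 0% of all genes) and 2 (4.44%) an unadjusted p of 0.05, against 9.14% of all genes. The median difference was 0.089 over the 45 genes and -0.035 over all genes. Cxcl14 again had the smallest p. It ranged from -0.42 to 0.55 in HF75, with a median of 0.26, all 6 values below the lowest of HFC, which was 0.59. Its difference was -1.33 (SE 0.47, unadjusted p = 0.00907, adjusted p = 0.538), and the arrays of the 2 groups were of the same brightness in each week. Cxcl13 differed by 1.46 (SE 0.68, adjusted p = 0.539), higher at 4 of 6 weeks, and by 0.68 without week 3. The membrane-bound fractalkine Cx3cl1 was higher at 6 of 6 weeks, by 0.91, with levels from 0.75 to 2.45 in HF75 and from 0.47 to 1.72 in HFC, which overlapped. Its receptor Cx3cr1, of monocytes and resident macrophages, differed by -0.83, and by -0.48 without week 15, a sign that turned with the background correction. Cxcr4 differed by 1.22 on the probe used (0.63 without week 3) and by -0.30 on its other probe.

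The week 3 array of HF75 lay apart from the others of its group. There 33 of the 45 genes were at least 2-fold above the HFC array of the same week, against 25.3% of all genes, and the median difference was 2.59. In the other 5 weeks the medians ran from -1.02 to 0.26. Its summed macrophage markers were 5.34, within the 2.93 to 5.78 of the other 37 arrays, although the mean level of these markers, 1.11, was above theirs (-1.36 to 0.99). Its summed lymphatic endothelial markers (4 genes) were 0.99, against -2.97 to -0.15 in the others. The mean level of these markers in this array, -3.17, lay within that of the others (-6.06 to -2.46). Of the genes seen on every array, 6 of 16, Ccl2 and Ccl4 among them, were highest there. The part of these cells in this array was not tested.

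With 20 µg, 0 of 45 genes passed an adjusted p of 0.05 (limma, 0% of all genes). At an unadjusted p under 0.05, 13 genes (28.9%) passed, against 33.2% of all genes, so that the share in both directions together lay near the background. By direction, 12 were lower (26.7%, against 19.9% of all genes) and 1 was higher (2.22%, against 13.2%). The median difference was -0.51 over the 45 genes and -0.20 over all genes. Ccr3, the eotaxin receptor, ranged from -5.86 to -2.97 in HF20 (median -4.51) and from -5.51 to 0.88 in HFC (median -2.46). The ranges overlapped, HF20 was lower at 5 of 6 weeks, and the difference was -2.098 (SE 0.71, unadjusted p = 0.00677, adjusted p = 0.118), or -1.30 without week 12.

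Ccl8, a monocyte attractant made by resident macrophages, went the other way. It ranged from -0.31 to 2.89 in HF20 (median 1.05) and from -2.21 to 0.37 in HFC (median -0.49). It was higher with 20 µg at 5 of 6 weeks, in ranges that overlapped, by 1.96 (SE 0.69, unadjusted p = 0.00889, adjusted p = 0.118). The summed macrophage markers ranged from 3.44 to 5.78 in HF20 and from 3.60 to 4.32 in HFC. Summed endothelial markers had medians of 4.35 in HF20 and 7.09 in HFC, summed neutrophil markers 3.75 and 6.39, summed B cell markers -1.41 and 0.81, and summed NK cell markers -1.60 and -0.61, all in overlapping ranges, and the part of these cells was not tested. Next came Xcr1 with -1.93, Ccl3 with -3.16 and Ccr6 with -1.54, each at an adjusted p of 0.118. They were -1.28 for Xcr1 and -0.90 for Ccr6 without week 18, and -2.08 for Ccl3 without week 15. Without week 3, 9 of the 45 genes passed an adjusted p of 0.05, against 16.4% of all genes. In the 3 weeks where the HF20 and HFC arrays shared a brightness (3, 9 and 18), the median difference of the 45 genes was 0.05, and in weeks 6, 12 and 15 it was -1.58.

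The 3 doses were then compared with each other by a limma F test. It called 4 of the 45 genes (8.89%) at an adjusted p of 0.05, against 13.4% of all genes, and 12 (26.7%) at an unadjusted p of 0.05, against 37.3%. The called genes were Ccl3, Cxcl2, Cxcr4 and Cxcl12, and in each the group with 20 µg had the lowest median. Ccl4 (adjusted p = 0.0516) lay just outside.

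Ccl3, or MIP-1 alpha, a ligand of CCR1 made by activated macrophages, ranged from -1.40 to 1.69 in HF5 (median -0.41), from -6.22 to 0.40 in HF20 (median -3.46) and from 0.21 to 3.38 in HF75 (median 1.09). HF75 was above HF20 at 6 of 6 weeks, though the ranges overlapped slightly. The log2 difference of HF75 from HF20 was 4.90 (SE 1.17) and that of HF75 from HF5 was 1.75 (1.01 without the week 3 array of HF75), with an adjusted p of 0.0352 for the F test.

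Cxcl2, or MIP-2, which draws neutrophils through CXCR2, ranged from -1.58 to 0.56 in HF5 (median -0.99), from -8.34 to -0.32 in HF20 (median -5.64) and from -0.72 to 2.76 in HF75 (median 0.51). HF75 was the higher of the pair at 6 of 6 weeks, in ranges that overlapped, and HF20 was well above background on 3 of 6 arrays. The difference of HF75 from HF20 was 5.85 (SE 1.47) and the adjusted p was 0.0363. Of the 3 tested neutrophil attractants, Cxcl1, named after its values were seen, differed by 3.45. Cxcl15 had means of -3.10 in HF75 and -6.50 in HF20, well above background on 3 and 1 of 6 arrays.

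Cxcr4, the receptor of CXCL12 on most leukocytes and progenitors, ranged from -1.48 to 0.76 in HF5 (median -0.40), from -4.92 to 0.38 in HF20 (median -3.87) and from -1.12 to 0.63 in HF75 (median 0.29). HF75 was above HF20 at 5 of 6 weeks, by 3.00 (SE 0.81), and the adjusted p was 0.0379. Its ligand Cxcl12, made by stromal and endothelial cells, ranged from 6.07 to 7.19 in HF5 (median 6.63), from 2.46 to 7.45 in HF20 (median 3.62) and from 5.02 to 7.35 in HF75 (median 6.57). The HF20 levels were spread over the whole range, and HF75 was the higher at 4 of 6 weeks. The difference of HF75 from HF20 was 1.98 (SE 0.67), that of HF20 from HF5 was -2.20, and the adjusted p was 0.0475. The other Cxcl12 probe gave -0.12 for HF20 against HFC, where the probe used gave -1.499.

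**Figure D4:**
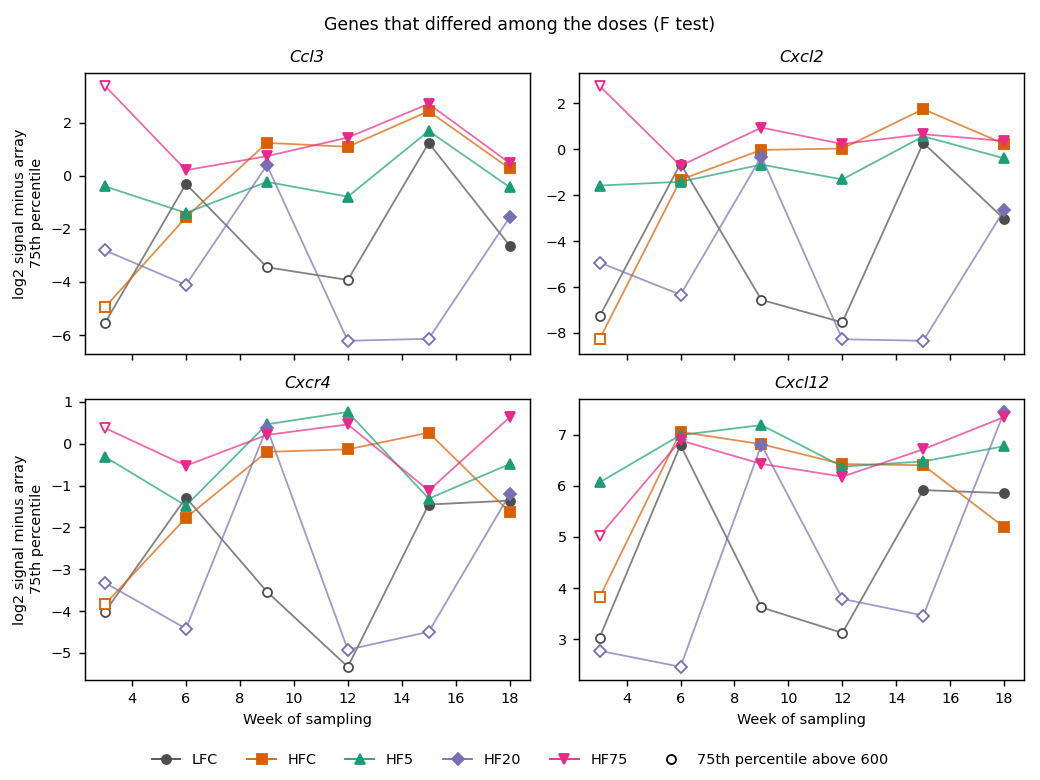
Log2 signal relative to the array's 75th percentile of Ccl3, Cxcl2, Cxcr4 and Cxcl12 at weeks 3 to 18 in LFC, HFC, HF5, HF20 and HF75, 1 array per point, with open symbols for bright arrays. The 4 lowest HF20 values in each panel are those of bright arrays, and HF75 lies above HF20 at each week for Ccl3 and Cxcl2.

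The 4 lowest HF20 values of each of these genes were those of its 4 bright arrays. In weeks 3, 9 and 18, where HF75 and HF20 shared a brightness, the mean difference of HF75 from HF20 was 2.86 for Ccl3 (0.34 to 6.20), 3.99 for Cxcl2 (1.26 to 7.69), 1.79 for Cxcr4 (-0.17 to 3.70) and 0.59 for Cxcl12 (-0.37 to 2.25). In weeks 6, 12 and 15 it was 6.94, 7.71, 4.22 and 3.36. The highest of the 3 values was that of week 3 in each gene. Without it, weeks 9 and 18 gave means of 1.19 for Ccl3, 2.14 for Cxcl2, 0.83 for Cxcr4 and -0.24 for Cxcl12, so that the sign of Cxcl12 turned. The calls were lost with brightness in the model, in the dim arrays alone, and without the week 3 array of HF75 (0 of 45 and 0% of all genes in each). They were also lost on leaving out weeks 3, 6, 12 or 15, again with 0% of all genes. Without week 9, 7 of the 45 genes were called, against 24.7% of all genes, and without week 18, 9 were called, against 24.6%. Summed endothelial markers ranged from 4.11 to 7.89 in HF20 (median 4.35), from 6.92 to 7.93 in HF5 and from 7.16 to 7.74 in HF75, and summed neutrophil markers had medians of 3.75 in HF20, 5.54 in HF5 and 6.54 in HF75.

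Time on diet was the last question. Days on diet ran together with the age of the mice in both groups, and these cannot be told apart. In LFC and HFC together, with diet in the model, 1 of the 45 genes (2.22%) changed with days at an adjusted p of 0.05 (limma), against 1.63% of all genes, and 12 (26.7%) passed an unadjusted p of 0.05, against 21.3%. Days differ only between time points, yet the LFC and HFC arrays of a time point counted as independent in this fit. Deviations of such pairs correlated at -0.25 to 0.67, so that the SE and p-values of the slopes can be too small. The 1 gene was Cxcl13, which rose by 2.96 per 100 days (SE 0.56, adjusted p = 0.0278). In LFC its levels lay between -4.43 and -3.54 up to week 0, then between -2.88 and 0.31. In HFC they lay between -6.44 and -3.84 up to week 0 and between -5.69 and 0.72 thereafter, with the peak at week 15 in HFC and at week 12 in LFC. Both diets were thus higher late than early, with overlap in HFC. The adjusted p was 0.0637 without week 0, 0.0561 without week 15 and 0.0925 with scan day as a random block.

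The eotaxin receptor Ccr3 had a slope of 2.37 per 100 days (SE 0.60, adjusted p = 0.0505), just above the threshold. Ccl20 had 1.67 (1.04 without week 18), Cxcl14 had 1.65 (1.08 without day 6 and 2.62 without week 18) and Cx3cr1 had -1.31. Whether the difference between the diets moved with days was tested by the product of diet and day: 0 of 45 genes passed an adjusted p of 0.05 (limma, 0% of all genes) and 6 (13.3%) an unadjusted p of 0.05, against 15.3% of all genes. The smallest p was that of Ccr6, with 1.87 per 100 days (SE 0.59, adjusted p = 0.156), followed by the gut-homing receptor Ccr9 with 3.03 (SE 0.97), Ccl20 with 2.20, Ccl26, an eotaxin, with 1.94 and Ccr3 with 2.45. All 5 had their highest HFC value at week 18: 0.88 for Ccr3, 0.69 for Ccr6, 1.88 for Ccr9, -1.66 for Ccl20 and -3.04 for Ccl26. That array was dim, with a 75th percentile of 49.8 units. Ccl26 lay there below the lowest signal called well above background (9.04 units). Ccl20 was well above background on 1 LFC and 3 HFC arrays of 10, and Ccl26 on 5 and 4.

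**Figure D5:**
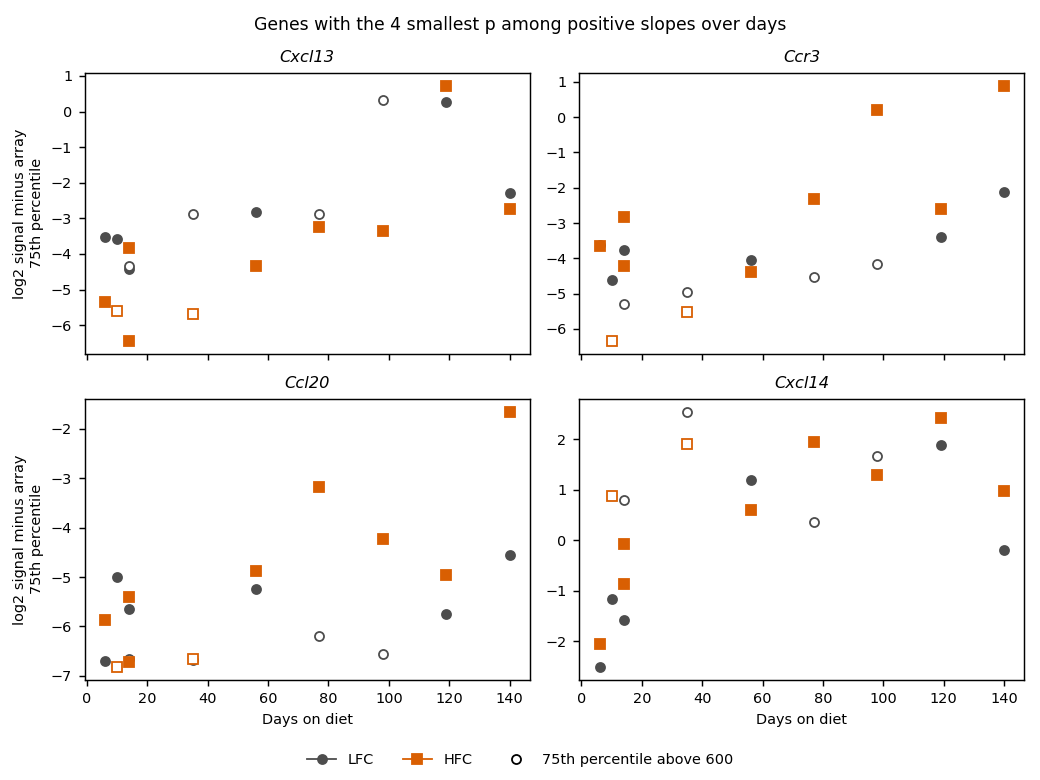
Log2 signal relative to the array's 75th percentile of Cxcl13, Ccr3, Ccl20 and Cxcl14 against days on diet in LFC and HFC, 1 array per point, with open symbols for bright arrays. Cxcl13 rose by 2.96 per 100 days across both diets, with its highest value, 0.72, in HFC at week 15.

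The other genes of the chemokine system gave few calls. The list held 67 gene symbols for atypical receptors, signalling and the inducers of chemokine transcription, some of them an older and a newer name of the same gene (such as Darc and Ackr1). Of these, 59 were tested. By limma 6 (10.2%) passed an adjusted p of 0.05 in the F test of the doses, against 13.4% of all genes, and 0 in each test of a diet, of a dose against HFC and of days. At an unadjusted p under 0.05, 6 (10.2%, against 6.98% of all genes) were higher and 0 lower in HFC than in LFC, led by interferon gamma, Ifng (1.85, SE 0.58, adjusted p = 0.643), and Vav1, a Rac activator (0.84). In weeks 3 to 18, 3 (5.08%, against 14.5%) were higher and 0 lower, led by Il1b (2.77), an inducer of neutrophil attractants, and the chemerin receptor Cmklr1 (1.70). With 5 µg, 4 were higher and 1 lower (8.47%, against 5.45%), led by the small GTPases Rac1 (0.79) and Cdc42 (0.47). With 20 µg, 0 were higher and 9 lower (15.3%, against 33.2%), led by Cmklr1 (-2.18) and Elmo1 (-1.73), which carries the signal to Rac. With 75 µg, 4 were higher and 0 lower (6.78%, against 9.14%), led by Arrb1 (0.69), a desensitising arrestin, and the lymphotoxin receptor Ltbr (0.56). Among the doses, Elmo1 and Ccrl2, an atypical receptor, had the smallest p, each at an adjusted p of 0.0343. The mean level of Elmo1 was -1.89 in HF5, -4.05 in HF20 and -1.30 in HF75, and that of Ccrl2 was 0.86, -1.80 and 1.30. For the product of diet and day, 3 were higher and 1 lower (6.78%, against 15.3%), led by Pik3cg with 1.79 and Ptk2b with 1.37, and over days 3 were higher and 3 lower (10.2%, against 21.3%), Gnb2 with -0.63 among them.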

How the data were processed

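RNA of 38 brown adipose tissue samples was hybridised to 1-colour Agilent whole mouse genome arrays. The deposited files hold the scanner's intensity per spot: the processed signal, background-corrected by Agilent Feature Extraction (version 10.5.1.1 in the file headers, 9.1 in the submitters' processing notes). The deposited table of log2 values, made by the authors with GeneSpring, was used as an alternative. Its columns held log2 ratios to LFC at that time, and those of week 15 matched the scanner files by row order and not by probe name. Of the sample columns, 0 were left unmapped.

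Here the log2 processed signal minus the array's 75th percentile was used, after control spots and 2492 outlier spots over all arrays had been left out, spots of a probe being averaged and the probe with the highest mean taken per gene name. Genes well above background on at least 6 arrays were tested with limma 3.58.1 (lmFit and eBayes, R 4.3.3), two-sided, with Benjamini-Hochberg adjustment over all genes tested and calls at 0.05. HFC against LFC and its product with days used the 20 arrays of those groups, the doses and weeks 3 to 18 the 30 arrays of those weeks, each with time point as a block, and the trend over days had diet and no block. The block rests on the shared days of sampling. Deviations of same-day arrays correlated at -0.25 to 0.67 for HFC with LFC and at -0.35 to 0.62 for the doses with HFC.

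The genes named in a comparison are those past the threshold or, where under 5 were, the 5 with the smallest p, beside every member well above background on all 38 arrays, and the 2 pathway genes with the smallest p. A few genes that this rule or the marker lists hold are not reported here. Members and lists were chosen with earlier results of these data known. The fits were tested on simulated data. Alternatives varied the normalization, background correction, filter, probe, block, weights, brightness and batch (32 slides, 12 scan days), and left out each time point. The number of arrays limits the precision.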

Additional observations from a re-analysis of the deposited data

Results flagged for a closer look

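In 8 of 165 sets of values (33 genes in each of 5 groups) the highest or lowest array lay far from the others of its group, where chance gives about 1 in 20. All values are log2 signals relative to the array's 75th percentile. The week 3 array of HF75 was the highest of its group for Ccl11 at 2.86, with the next at 0.21. The week 3 array of HF20 was the highest for Ccl19 at 1.999 (next -0.52) and for Ccl24 at 0.60 (next -1.54). The week 9 array of HF20 was the highest for Xcr1 at -1.67 (next -3.88), and the week 9 array of HF5 was the lowest for Ccl19 at -2.12 (next -0.38). In HFC, week 18 was the highest for Ccr6 at 0.69 (next -2.46) and week 15 for Cxcl13 at 0.72 (next -2.73). In LFC, week 12 was the lowest for Ccr10 at -8.78 (next -6.58), where the probe was not well above background.

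The responses to the 3 doses, each against HFC, differed by the limma F test for Ccl3 (adjusted p = 0.0352), Cxcl2 (adjusted p = 0.0363), Cxcr4 (adjusted p = 0.0379) and Cxcl12 (adjusted p = 0.0475). These were 4 of 45 genes (8.89%), a share below the 13.4% of all genes called. The count was 0 with brightness class in the model, with normexp, without the week 3 array of HF75 and in the dim arrays alone.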

How the results depend on the processing

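Of 172 recomputed counts of chemokine genes past the threshold, 145 stayed within 1.5 times the value reported. A count of 0 that stayed 0 was among these, and only the doses and the trend over days had calls to lose. The share thus says little about how stable those calls were. All 152 recomputed medians moved by less than the spread, which was the SD of the medians by time point or, for the slopes, the median SE. That spread is wide: for HF20 minus HFC the medians by time point ran from -2.68 to 1.29. Direction was not checked, and a median that changed sign could still be counted. Among the doses, where 4 genes were called, the count was 0 with normexp background correction, with no filter on dim probes, with brightness class in the model, without the week 3 array of HF75 and in the dim arrays alone (an alternative chosen after seeing the data), each with 0% of all genes. It was 8 with the 3 doses alone (against 18.9% of all genes) and 11 with slide as a random block (against 29.6%). Leaving out a time point gave 0 to 9, against 0 to 24.7% of all genes. For the trend over days, where 1 gene was called, the count was 3 with quantile normalization, normexp, array weights or the dim arrays alone, 2 with dim signals raised, 5 with brightness class in the model, and 0 with scan day as a random block or with only genes well above background on all 38 arrays, which leaves Cxcl13 out. Leaving out a time point gave 0 to 2. The share of all genes called is not given beside these counts of the trend, so they cannot be set against the background. In the main fit that share was 1.63%, against 2.22% of the 45 genes. For HF20 against HFC, leaving out a time point gave 0 to 9, the 9 without week 3 (against 16.4% of all genes). The other comparisons kept 0 calls. Without the replicate block (the pairing by time point) the counts were 3 among the doses (against 5.66% of all genes) and 0 in the other paired comparisons, and the call of Cxcl12 was lost.

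Single genes kept their direction in all but 5 of 829 recomputed values. The trend of Cx3cr1 turned to 0.76 under normexp (from -1.31), and its HF75 difference to 0.027 under normexp and 0.21 with dim signals raised (from -0.83). The HF75 difference of Cxcl12 from HF5 turned to 0.12 as a mean over probes and 0.26 with brightness class in the model (from -0.22). The cause was not tested. Genes near background, such as Ccl20, Ccr10 and Xcl1, limit what can be read from their differences.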
